A study of Mus musculus with 6 samples.

Results

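The nuclear genes for the subunits of the 5 complexes of mitochondrial oxidative phosphorylation were followed in primary mouse hepatic stellate cells. The members were taken by gene symbol from the deposited exon count table: complex I subunits named Nduf followed by a, b, c, s or v (assembly factors named Ndufaf left out), the 4 succinate dehydrogenase genes, the Uqcr genes, Cox4 to Cox8, and the Atp5 genes, each annotated as protein-coding. This gave 84 of the 24940 genes in the table, 38 for complex I, 4 for complex II, 8 for complex III, 18 for complex IV and 16 for complex V. Symbols are the older ones used in the table, such as Atp5a1 and Atp5b.

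The cells were wild-type, isolated from C57BL/6JBomTac females. On day 2 of culture, 1 group was given 10 µM obeticholic acid (OCA), a bile acid derivative that activates the receptor FXR, and the other group an equal volume of the solvent DMSO (1:1000). Vasoactive intestinal peptide (VIP, 500 nM) was added 3 h later to both groups, and RNA was taken after a further 3 h. Each group, DMSO+VIP and OCA+VIP, had 3 libraries, and every library had received VIP, so the comparison is of OCA with its solvent in VIP-exposed cells. The labels name neither separate animals nor separate cultures behind the libraries, and a p-value here weighs a difference against library-to-library spread only, which may be technical.

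Complex I takes electrons from NADH and complex II from succinate, both pass them through ubiquinone to complex III, and cytochrome c carries them to complex IV, where oxygen is reduced. Complexes I, III and IV pump protons across the inner mitochondrial membrane, and complex V, the ATP synthase, uses the gradient to make ATP. Except for complex II, each complex also holds subunits encoded by mitochondrial DNA; those genes are not rows of this table and were not analysed here. Many nuclear subunit genes are known targets of the transcription factors NRF1 and GABP, an ETS family protein, and their RNAs are mostly short and abundant.

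Of the 84 members, 69 were matched to a RefSeq promoter window (GRCm38.p6, 250 bases before to 50 after the annotated start). The NRF1 palindrome, which stands in capitals in the Atp5k sequence below, was found on either strand in 5 of the 69 members and in 1.07% of all 27025 genes with a window. The ETS core CCGGAAG was found in 16 of the 69 members (23.2%) and in 9.93% of all genes, and the shorter NRF1-type element TGCGCA, which can overlap the palindrome, in 18 (26.1%) against 8.79%. The extended YY1 element was found in 4 members (5.80%) against 0.755%. The CRE sequence TGACGTCA was found in 4 members (5.80%) against 2.03%, and the ERRA sequence TCAAGGTCA in 2 (2.90%) against 0.466%. The consensus FXR inverted repeat was found in 0 of the 69 members and in 3 of all genes. These are matches of letters, not measured binding sites.

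The 250 bases before the start are shown for 2 members with the NRF1 palindrome, Cox6a1 (chr5:115348959-115349208, minus strand) and Atp5k (chr5:108434400-108434649, minus strand), and for Ndufc2 (chr7:97399753-97400002, plus strand), the member with the smallest p in the comparison and none of the searched letters in its window. Each reads 5′ to 3′ along the gene's strand, on GRCm38.p6, and capitals mark the NRF1 palindrome, TGCGCA and the ETS core on either strand.
Cox6a1: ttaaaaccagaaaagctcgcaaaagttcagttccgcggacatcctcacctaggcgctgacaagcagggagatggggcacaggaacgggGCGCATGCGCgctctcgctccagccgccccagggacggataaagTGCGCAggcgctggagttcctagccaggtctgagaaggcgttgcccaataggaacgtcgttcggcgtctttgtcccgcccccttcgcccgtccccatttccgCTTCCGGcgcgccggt
Atp5k: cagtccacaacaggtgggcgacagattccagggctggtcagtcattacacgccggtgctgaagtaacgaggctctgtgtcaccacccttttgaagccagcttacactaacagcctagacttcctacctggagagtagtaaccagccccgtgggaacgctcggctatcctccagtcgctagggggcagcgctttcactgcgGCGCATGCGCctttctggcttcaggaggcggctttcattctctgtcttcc
Ndufc2: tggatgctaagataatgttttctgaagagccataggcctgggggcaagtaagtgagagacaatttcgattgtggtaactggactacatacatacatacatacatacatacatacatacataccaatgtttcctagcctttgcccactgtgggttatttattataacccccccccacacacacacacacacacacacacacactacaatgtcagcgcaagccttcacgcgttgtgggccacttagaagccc

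Column totals were 2839106 to 4574160 expected counts in DMSO+VIP and 4534360 to 9947968 in OCA+VIP, where library 2 was the deepest. Of nonzero counts up to 30, 65.4% to 87.5% lay within 0.5 of a multiple of 3, and the commonest in every library was 6 (19.2% to 25.4%), then 3. A floor of 3 times that commonest count, 18 counts over a group, was therefore taken as a cautious limit for a count of 0, which is 1.61 CPM (counts per 1000000 of the column total) in DMSO+VIP and 0.887 CPM in OCA+VIP. All 15 stellate cell markers listed were tested, of which 3 rose (Dcn, Ngfr and Colec11), 4 fell (Des, Hgf, Col1a1 and Acta2) and 8 did not pass, and their summed level was 909 ± 149 CPM under DMSO+VIP, and 862 ± 58.6 CPM under OCA+VIP (SD, n = 3). The 17 hepatocyte markers summed to 77.3, 85.2 and 85.3 CPM in the DMSO+VIP libraries and to 441, 267 and 385 CPM in the OCA+VIP libraries, with Tat and Cps1 at 0 in all 6. In OCA+VIP they were highest in library 1 and lowest in library 2, the groups did not overlap, and 10 of the 13 tested markers were called higher. Over all tested genes, 5.72% were called higher and 6.04% lower.

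With OCA, most subunit RNAs were slightly lower, and few of these differences passed the test. Summed over the 84 members, the RNA level was 8647, 9551 and 9277 CPM in DMSO+VIP libraries 1 to 3 and 8398, 7538 and 8834 CPM in OCA+VIP libraries 1 to 3. The groups overlapped, because OCA+VIP library 3 was above DMSO+VIP library 1. The means were 9159 ± 464 and 8257 ± 660 CPM (SD, n = 3), or 0.916% and 0.826% of all counts. In bulk RNA, a smaller share of cells with a high level and less RNA per cell cannot be told apart.

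Of 76 members with enough counts for the test, 2 fell with OCA, 0 rose and 74 did not pass (adjusted p under 0.05 by edgeR's quasi-likelihood test, Benjamini-Hochberg over 11286 genes). Over all tested genes, 6.04% fell and 5.72% rose. By DESeq2, 9 of 77 tested members fell and 0 rose. Of all genes tested by DESeq2, 18.2% were called in either direction and 9.02% fell. Without adjustment, 16 members were lower and 0 higher at p under 0.05, where 13.1% and 12.9% of all tested genes were. The fitted log2 fold change was below 0 for 59 of the 76 members (77.6%) and for 49.9% of all tested genes. The median log2 fold change was -0.19 over the members and 0.00 over all tested genes. The largest differences were -1.50 and 0.24, and the SE was 0.11 to 0.56, with a median of 0.16. In 20 members (26.3%) the 3 OCA+VIP libraries all lay below the 3 DMSO+VIP libraries, as in 13.9% of all tested genes, and in 1 member, Uqcrc1, they all lay above, as in 16.8%.

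**Figure D1:**
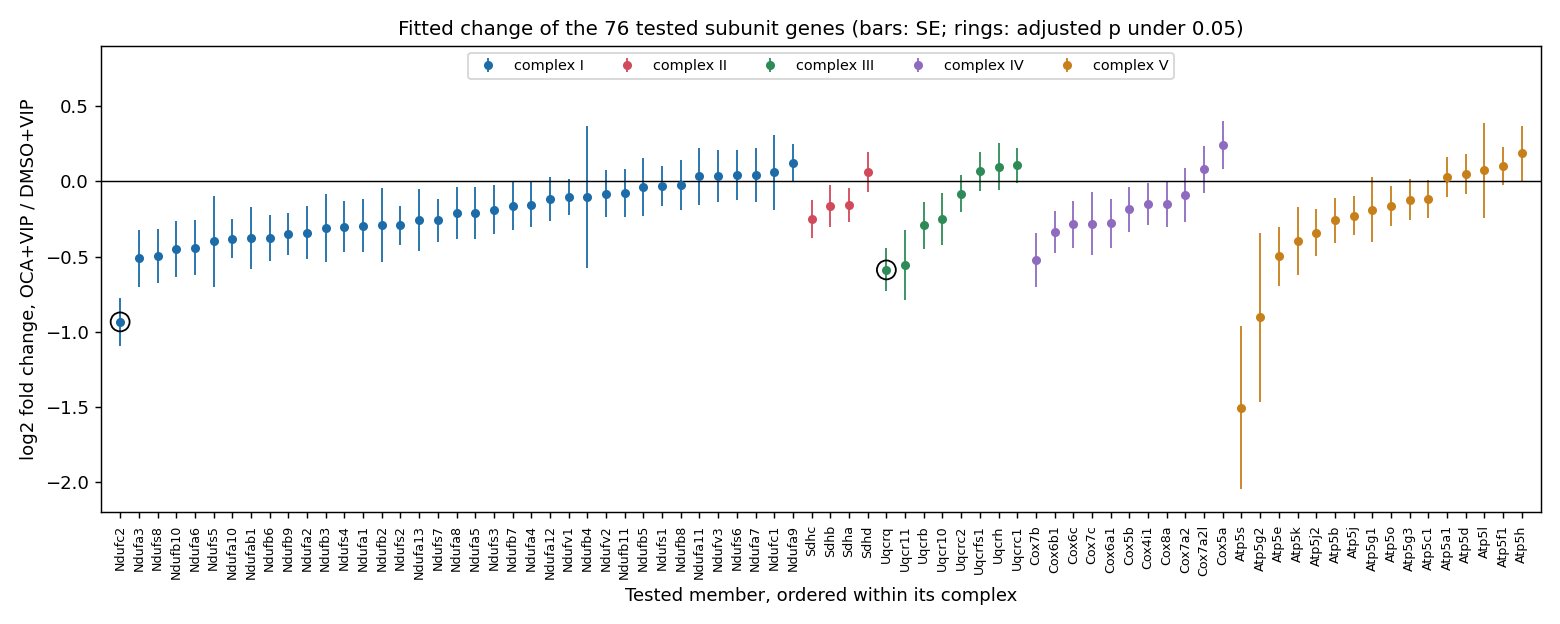
Fitted log2 fold change of OCA+VIP over DMSO+VIP (y axis) for the 76 tested members, ordered by value within each complex; bars are the SE of the fit and rings mark an adjusted p under 0.05. Of the 76 points, 59 lie below 0, and the rings are on Ndufc2 (-0.93) and Uqcrq (-0.59).

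The libraries contributed unevenly to this difference. DMSO+VIP library 2, the shallowest, held the highest CPM of 35 of the 76 members, and OCA+VIP library 2, the deepest, held the lowest of 34. Relative to the DMSO+VIP mean on the log2 CPM scale, the median member lay at -0.10, 0.11 and 0.00 in DMSO+VIP libraries 1 to 3 and at -0.16, -0.36 and -0.05 in OCA+VIP libraries 1 to 3. OCA+VIP library 3 therefore lay within the range of the DMSO+VIP libraries, and OCA+VIP library 2 lay farthest from it. Without OCA+VIP library 2 the median log2 fold change of the members was -0.12, with 55 of 76 below 0 and the same 2 members called. The median coefficient of variation over the members was similar, at 11.8% in DMSO+VIP and 12.6% in OCA+VIP. The largest was 37.6% in DMSO+VIP and 60.7% in OCA+VIP. The SD of the sum over all members was 464 CPM in DMSO+VIP and 660 CPM in OCA+VIP.

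Exon length moved with the difference. The tested members had a median exon length of 746 bases, against 2940 bases for all tested genes. Among tested genes that are not members, the median log2 fold change was -0.24 for 180 genes of up to 600 bases, -0.11 for 543 genes above 600 and up to 1000 bases, and between 0.00 and 0.02 for the longer classes. The members had -0.26 (28 genes) and -0.21 (21 genes) in the same 2 short classes, and -0.14, -0.09 and -0.03 in the next 3, which hold 10, 14 and 3 members. For genes of up to 1000 bases together, the medians were -0.14 for 723 other genes and -0.23 for 49 members, and for longer genes they were 0.01 for 10487 other genes and -0.11 for 27 members. Without OCA+VIP library 2 these 4 medians were -0.06, -0.15, 0.00 and -0.05. The short-gene difference outside the respiratory chain depended on the count filter: it was -0.09 when 1 CPM in 3 libraries was required and 0.02 with no filter, where the short members had -0.23 and -0.25. The 723 short genes outside the respiratory chain summed to 49635, 57572 and 55390 CPM in the DMSO+VIP libraries and to 50167, 40358 and 50256 CPM in the OCA+VIP libraries, highest and lowest in the same 2 libraries as the members. The 81 cytosolic ribosomal protein genes, also short, summed to 20548 ± 2103 CPM under DMSO+VIP, and 15885 ± 2736 CPM under OCA+VIP (SD, n = 3), with 12727 CPM in OCA+VIP library 2. Rn45s, the ribosomal RNA precursor, had 5462 CPM in OCA+VIP library 1 and 1940 to 2874 CPM in the other 5 libraries. That library held the lowest CPM of 21 members and the lowest complex I sum. With CPM scaled by TMM, the complex I sum was lowest in OCA+VIP library 2 (2392 CPM, against 2570 CPM in OCA+VIP library 1). Without OCA+VIP library 1 the median of the members was -0.21 and the same 2 were called. The part of length, of depth, of Rn45s and of the hepatocyte markers in the members' difference was not tested.

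**Figure D2:**
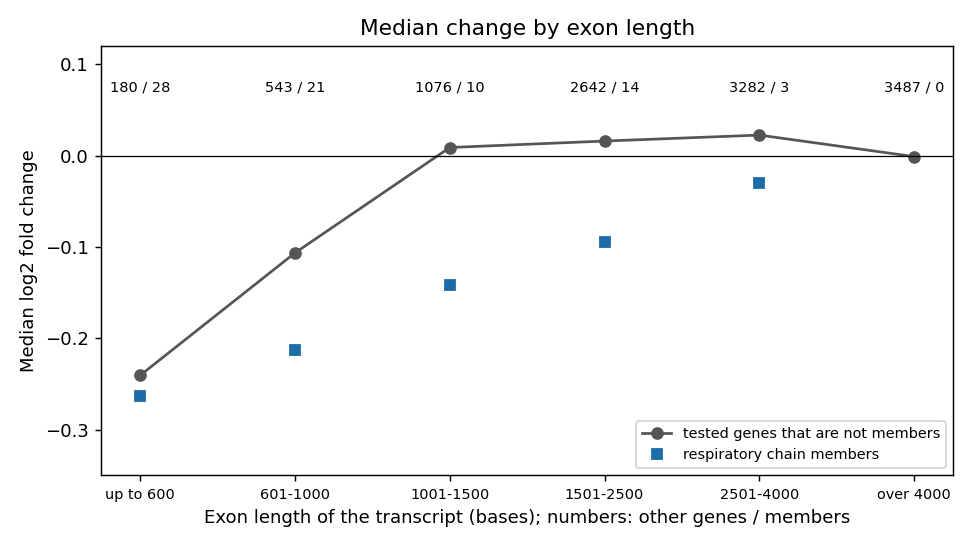
Median log2 fold change of OCA+VIP over DMSO+VIP (y axis) by exon length of the transcript in bases (x axis) for tested genes outside the respiratory chain (circles) and for members (squares), with the number of each printed above. Both are lowest in the shortest class, at -0.24 and -0.26, and no member is longer than 2905 bases.

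By complex, the sums kept their order in both groups, with complex V and complex I highest. Complex I summed to 2960 ± 156 CPM under DMSO+VIP, and 2577 ± 151 CPM under OCA+VIP, and complex II to 752 ± 40.8 and 696 ± 22.9 CPM (SD, n = 3 throughout). In both, each OCA+VIP library lay below each DMSO+VIP library, but with CPM scaled by TMM complex II overlapped, with 745 CPM in OCA+VIP library 1 and 723 CPM in DMSO+VIP library 3. Complex III had 1036 ± 71.2 and 964 ± 64.6 CPM, complex IV 1355 ± 114 and 1210 ± 172 CPM, and complex V 3056 ± 119 and 2811 ± 335 CPM, and in these 3 the groups overlapped. The ratio of OCA+VIP to DMSO+VIP means was 0.870, 0.926, 0.930, 0.893 and 0.920 for complexes I to V. The median log2 fold changes were -0.21, -0.16, -0.17, -0.18 and -0.18, so the complexes differed from each other by less than the spread of each median between OCA+VIP libraries (SD 0.15, 0.04, 0.22, 0.26 and 0.18) except that of complex II. Without OCA+VIP library 2 the medians were -0.16, -0.14, -0.05, -0.02 and -0.08.

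**Figure D3:**
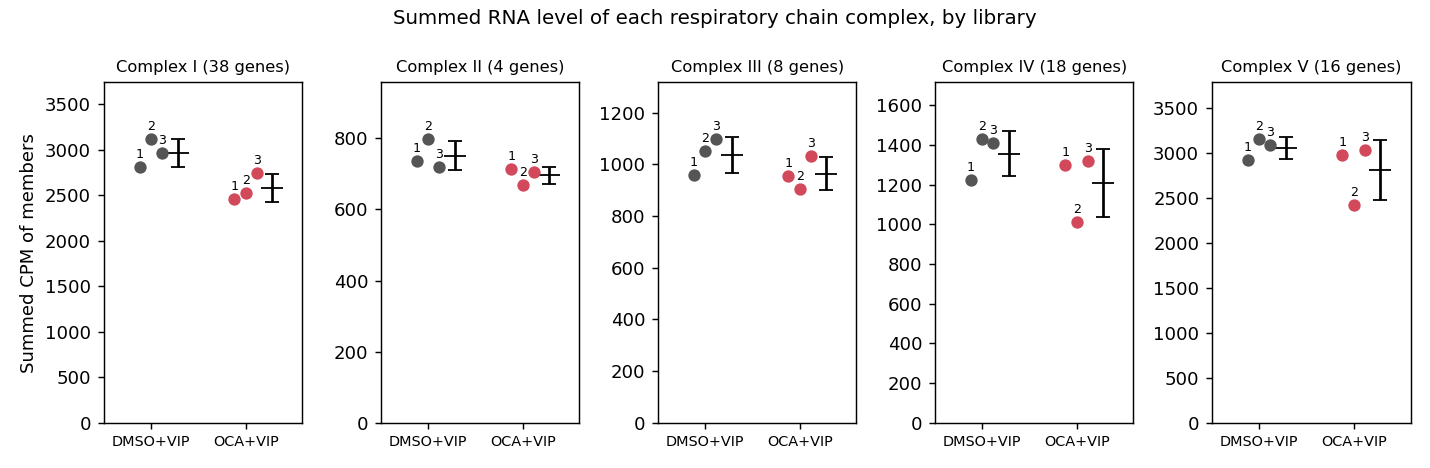
Summed CPM of the members of each complex (y axis, from 0, with its own scale in each panel) in the 3 DMSO+VIP and 3 OCA+VIP libraries, numbered as in the table; horizontal marks and bars are mean and SD. Complex I and complex II do not overlap between groups on this scale, and OCA+VIP library 2 is the lowest point for complexes II to V.

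Complex I had 37 tested members, of which Ndufc2 fell, 0 rose and 36 did not pass. Ndufc2 encodes an accessory subunit of the membrane arm (chromosome 7, 97400003 to 97407800, mm10, plus strand). Its level was 110, 149 and 115 CPM in DMSO+VIP libraries 1 to 3 and 57.4, 63.9 and 76.7 CPM in OCA+VIP libraries 1 to 3. All OCA+VIP libraries were below all DMSO+VIP libraries. The gap between the groups was wider than the range within OCA+VIP but narrower than the range within DMSO+VIP. The fitted difference was -0.93 on the log2 scale (edgeR adjusted p = 0.00036, SE 0.16), 1.91-fold lower. GENCODE lists no other gene over its exons, and no other annotated gene shares a stretch of at least 100 bases at 95% identity with it. The call held without any 1 of the 6 libraries, with adjusted p from 0.0011 to 0.0062 and log2 fold changes from -1.06 to -0.78.

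The 7 nuclear genes for the catalytic core of complex I, which carries the flavin and the iron-sulfur clusters, all had values below 0 and none passed the test. Their median log2 fold change was -0.19, from -0.50 for Ndufs8 (adjusted p = 0.071) to -0.03 for Ndufs1, which codes for the largest of them (adjusted p = 0.92). Their summed level was 767 ± 16.7 CPM under DMSO+VIP, and 684 ± 54.2 CPM under OCA+VIP. Among 29 accessory subunits, which leave out Ndufa4, 23 had values below 0 and 6 above, with a median of -0.26. Ndufa10 had 153, 125 and 157 CPM under DMSO+VIP, and 113, 120 and 104 CPM under OCA+VIP, with no overlap and an adjusted p of 0.061. Ndufa3 had 49.1, 52.0 and 50.8 CPM under DMSO+VIP, and 34.5, 34.98 and 38.4 CPM under OCA+VIP, also apart, with an adjusted p of 0.082. Ndufa9, which helps join the membrane arm to the peripheral arm, had the highest value of the complex at 0.12 (SE 0.12, adjusted p = 0.58).

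The most abundant complex I members per exon length were Ndufa4 and Ndufb9, with 221 and 184 CPM per kb as a mean of the 6 libraries. Ndufa4 is grouped with complex I by its symbol, although its protein is now placed in complex IV, and it was left out of the accessory subunits above. Ndufa4 had 107, 110 and 124 CPM under DMSO+VIP, and 93.5, 88.9 and 127 CPM under OCA+VIP, which overlap (log2 fold change -0.15, edgeR adjusted p = 0.57). Ndufb9 had 132 ± 16.6 and 105 ± 6.99 CPM without overlap (-0.35, SE 0.14, adjusted p = 0.11), and 28.6% of its exon bases are shared with the same-strand model Gm49356. Ndufa4l2, the paralog that hypoxia is known to induce, had 6 counts in 1 OCA+VIP library and none elsewhere, under that floor of 18 counts.

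Complex II, made only of nuclear-encoded subunits, had 4 tested members and none was called. Sdha, the flavoprotein, had 272, 276 and 265 CPM under DMSO+VIP, and 233, 253 and 250 CPM under OCA+VIP, which do not overlap but differ by a log2 fold change of only -0.16 (SE 0.11, adjusted p = 0.42). Sdhb, the iron-sulfur subunit, had -0.17. The membrane anchors differed in sign, with -0.25 for Sdhc (199 ± 10.7 against 169 ± 16.5 CPM, adjusted p = 0.23) and 0.06 for Sdhd (183 ± 20.1 against 192 ± 18.6 CPM, adjusted p = 0.83). Sdhc and Sdhd were the most abundant per length, at 157 and 147 CPM per kb.

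In complex III, Uqcrq fell, 0 members rose and 7 did not pass. Uqcrq encodes a small subunit, also called subunit VIII, that contributes to ubiquinone binding (chromosome 11, 53427922 to 53430831, mm10, minus strand). It had 120, 150 and 151 CPM in DMSO+VIP libraries 1 to 3 and 98.6, 85.2 and 98.7 CPM in OCA+VIP libraries 1 to 3. DMSO+VIP library 1 was the nearest to the OCA+VIP values and still above them. The fitted difference was -0.59 on the log2 scale (edgeR adjusted p = 0.0087, SE 0.14), 1.503-fold lower, and the adjusted p stayed between 0.0093 and 0.049 without any 1 library.

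**Figure D4:**
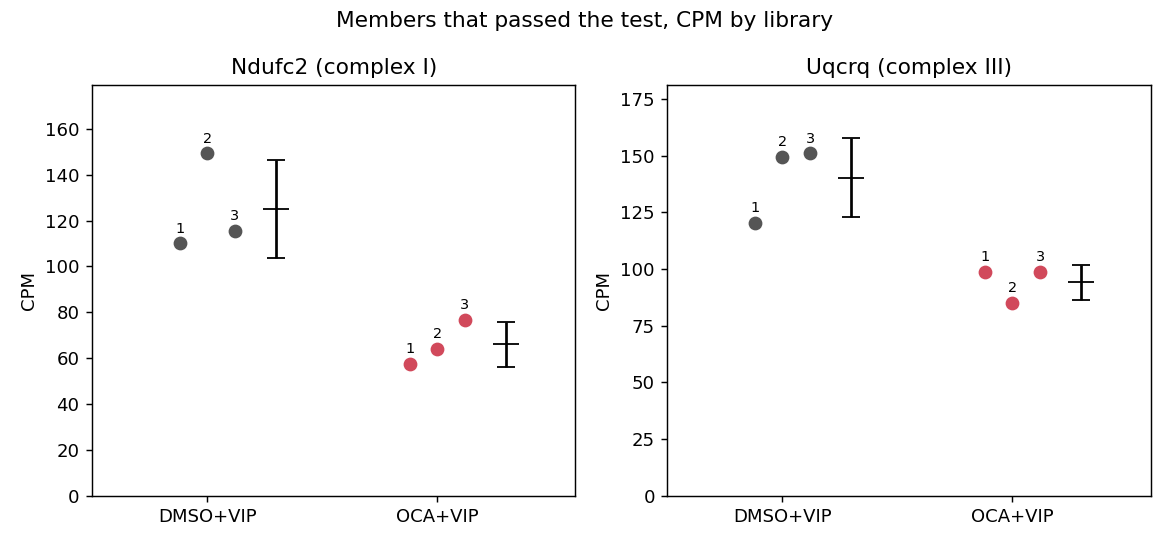
CPM (y axis, from 0) of Ndufc2 and Uqcrq in the 3 DMSO+VIP and 3 OCA+VIP libraries, numbered as in the table, with mean and SD. The 3 OCA+VIP points lie below the 3 DMSO+VIP points for both genes, at 57.4 to 76.7 against 110 to 149 CPM for Ndufc2 and 85.2 to 98.7 against 120 to 151 CPM for Uqcrq.

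The larger proteins of complex III had values near 0. The core proteins Uqcrc1 and Uqcrc2 and the Rieske iron-sulfur protein Uqcrfs1 had log2 fold changes of 0.11, -0.08 and 0.07, and together summed to 582 ± 38.6 CPM under DMSO+VIP, and 592 ± 13.8 CPM under OCA+VIP. Uqcrc1 had 166, 172 and 181 CPM under DMSO+VIP, and 187, 194 and 185 CPM under OCA+VIP, the only member of all 84 with every OCA+VIP library higher (adjusted p = 0.61). The 5 small subunits summed to 454 ± 36.4 and 372 ± 52.6 CPM (median log2 fold change -0.29). Among them were Uqcrb (-0.29, adjusted p = 0.24) and the hinge protein gene Uqcrh (0.10, adjusted p = 0.75), the most abundant per length at 188 and 167 CPM per kb. The core and Rieske genes have a median exon length of 1641 bases and the small subunits of 540 bases. Uqcrq, the called small subunit, is longer than that median, at 1521 bases. The difference between the core and Rieske genes and the small subunits was not tested.

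Complex IV had 11 tested members, none called, and 7 that were too low to test. The most abundant were Cox6a1 and Cox4i1, the largest nuclear-encoded subunit, with 361 and 360 CPM per kb. Cox4i1 had 259, 304 and 272 CPM under DMSO+VIP, and 275, 209 and 273 CPM under OCA+VIP, so only OCA+VIP library 2 lay below the DMSO+VIP range (log2 fold change -0.15, adjusted p = 0.54). Cox6a1, whose promoter is shown above, had 208 ± 34.2 and 173 ± 36.6 CPM (-0.28, adjusted p = 0.30). Cox7b had 60.7, 75.6 and 70.7 CPM under DMSO+VIP, and 37.9, 50.5 and 56.9 CPM under OCA+VIP, apart but not past the threshold (-0.52, SE 0.18, adjusted p = 0.061); 2 annotated pseudogenes carry a near-identical stretch of it. Cox6b1 also did not overlap, with 159 ± 11.9 and 127 ± 17.4 CPM (adjusted p = 0.13). Cox5a had the highest value of all members, 0.24 (SE 0.16, adjusted p = 0.35), and 41.7% of its exon bases are shared with an opposite-strand RNA gene, Gm26631. Whether counting used strand is not given in the sources used here.

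Several complex IV subunits exist as paralogs, 1 form widespread and others known from heart and skeletal muscle, lung or testis. In these cells the widespread forms carried nearly all counts. Cox4i2, the form known from lung, had 15 counts summed over DMSO+VIP and 4 over OCA+VIP, against 278 ± 23.4 and 252 ± 37.2 CPM for Cox4i1. The muscle forms Cox7a1 and Cox8b had 12 and 3 counts in all of DMSO+VIP and 15 and 0 in all of OCA+VIP, and the testis forms Cox6b2, Cox7b2 and Cox8c had 3.5, 0 and 0 counts and then 0 counts each. These 6 genes and Ndufa4l2 lie at or under 18 counts in both groups, so a difference was not detectable at this depth. Cox6a2, the muscle partner of Cox6a1, had 24.5 counts over DMSO+VIP and 9.5 over OCA+VIP, or 2.08, 3.17 and 1.61 CPM and then 0.662, 0 and 1.12 CPM, and was not tested. Their partners Cox8a (129 ± 15.01 and 117 ± 18.8 CPM), Cox7a2 (61.9 ± 13.0 and 58.8 ± 4.18 CPM) and Cox7a2l, a supercomplex factor (85.6 ± 5.70 and 91.4 ± 13.4 CPM), did not pass the test.

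**Figure D5:**
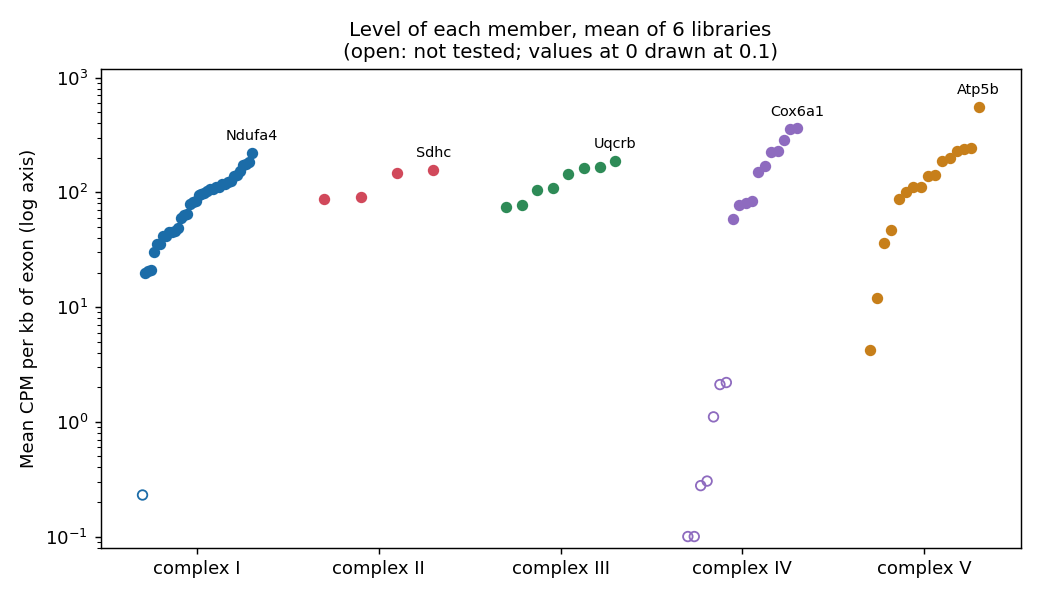
Level of all 84 members as mean CPM per kb of exon over the 6 libraries (y axis, log scale), by complex (x axis), each point 1 gene; open points were not tested and values of 0 are drawn at 0.1. Atp5b is highest at 559 CPM per kb, and the 8 open points, Ndufa4l2 and 7 complex IV paralogs, lie at or below 2.20 CPM per kb.

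Complex V had 16 tested members and none was called. Atp5b, the catalytic beta subunit, was the most abundant member of all, at 559 CPM per kb, where the median tested member had 107 CPM per kb and the median of all tested genes was 14.2. It had 1063, 1216 and 1127 CPM under DMSO+VIP, and 1082, 770 and 1009 CPM under OCA+VIP. OCA+VIP library 2 alone was far below the others, library 1 lay inside the DMSO+VIP range, and the difference did not pass (log2 fold change -0.26, SE 0.15, adjusted p = 0.28). Atp5a1, the alpha subunit, had 580 ± 18.2 and 596 ± 64.7 CPM (0.03, adjusted p = 0.92, and -0.01 with upper-quartile scaling). The 5 genes of the F1 head and central stalk summed to 2119 ± 89.5 and 1939 ± 266 CPM, and the 7 of the peripheral stalk and membrane part to 703 ± 37.4 and 668 ± 64.5 CPM. In the latter, Atp5h had the highest value of the complex, 0.19 (SE 0.19, adjusted p = 0.58).

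The c ring of the ATP synthase is built from 1 protein encoded by 3 genes. Of these Atp5g3 dominated, with 163, 161 and 190 CPM under DMSO+VIP, and 171, 135 and 172 CPM under OCA+VIP, which overlap (-0.12, adjusted p = 0.64). Atp5g1 had 39.4 ± 2.94 and 34.99 ± 8.46 CPM (-0.19, adjusted p = 0.64). Atp5g2 had 12.2, 10.6 and 6.96 CPM and then 2.21, 8.70 and 5.17 CPM (-0.90, SE 0.56, adjusted p = 0.32), and both carry stretches found in annotated pseudogenes. Per length the 3 genes had 230, 46.6 and 11.9 CPM per kb as a mean of 6 libraries. Atp5s, a coupling factor outside the structural core, had the lowest level per kb of exon (4.25 CPM per kb) and the lowest log2 fold change of all tested members. In CPM, Atp5g2 was lower as a mean of 6 libraries. Atp5s had 17.3, 11.4 and 9.64 CPM under DMSO+VIP, and 5.07, 2.11 and 6.55 CPM under OCA+VIP, without overlap (-1.50, SE 0.54, edgeR adjusted p = 0.075). Atp5s was called by DESeq2 (adjusted p = 0.014), by limma-voom (0.010) and by edgeR without the count filter (0.042).

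Other mitochondrial genes were compared from lists, beside 6.04% of all tested genes that fell and 5.72% that rose. None of 12 tested respiratory genes outside the naming rule (cytochrome c, electron transfer flavoproteins and others) was called (median log2 fold change -0.02), among them Cyc1, cytochrome c1 of complex III. None of 15 complex I assembly factors (median -0.24) and none of 31 assembly factors of complexes II to V (-0.13) was called. Of 78 mitochondrial ribosomal protein genes, 2 fell and 0 rose (median -0.06): Mrpl33 (-0.63, SE 0.16, adjusted p = 0.013) and Mrps24 (-0.86, SE 0.27, adjusted p = 0.042). Of 27 genes of protein import, cristae organisation and carriers, 2 fell and 0 rose (median -0.03). Slc25a4 encodes an ADP/ATP carrier that exports the ATP made by complex V. Its level fell from 253, 282 and 273 CPM to 148, 167 and 162 CPM (-0.78, SE 0.12, edgeR adjusted p = 0.00011), with no overlap. Slc25a5, another ADP/ATP carrier on the list, was not called. Timm44, an import motor subunit, had -0.52 (SE 0.14, adjusted p = 0.016).

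Of 20 tested regulators of mitochondrial gene expression and biogenesis, 3 rose, 1 fell and 16 did not pass (median 0.13). Over all tested genes, 5.72% rose and 6.04% fell. Sirt1, the deacetylase that acts on PGC-1 coactivators, rose from 161 ± 23.3 to 258 ± 5.31 CPM (0.67, SE 0.13, adjusted p = 0.0013). Yy1 (0.48) and Pprc1, a PGC-1 family coactivator (0.41), also rose, and Ppard fell (-0.39), with adjusted p of 0.026, 0.047 and 0.038. Of 20 tested genes of pyruvate oxidation and the TCA cycle, 2 rose and 2 fell (median 0.03). Pdk4, the kinase that inhibits pyruvate dehydrogenase, had 23.7, 14.4 and 10.7 CPM under DMSO+VIP, and 46.8, 41.4 and 37.8 CPM under OCA+VIP, without overlap (1.34, SE 0.27, adjusted p = 0.0020). Pdha1, the catalytic subunit of that enzyme, fell from 314 ± 25.6 to 228 ± 20.9 CPM (-0.48, adjusted p = 0.0086), Suclg2 fell (-0.999, adjusted p = 0.020) and Pdhx rose (0.52, adjusted p = 0.041).

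Markers of the remaining cell types had low sums. The listed endothelial markers summed to 17.3 to 35.9 CPM under DMSO+VIP, and 14.1 to 24.2 CPM under OCA+VIP (9 genes, Emcn and Lyve1 at 0). Of the 2 tested, Egfl7 fell from 25.6 ± 7.17 to 10.9 ± 2.32 CPM (-1.25, edgeR adjusted p = 0.012). The macrophage markers summed to 15.3 to 47.3 and 32.8 to 44.8 CPM (10 genes, Vsig4, C1qa and Timd4 at 0). Cholangiocyte markers summed to 6.16 to 14.9 and 17.3 to 21.0 CPM (6 genes, Cldn7 and Krt7 at 0). Of 7 lymphocyte markers 6 were at 0 in every library, and Cd79a, called higher, had counts in the 3 OCA+VIP libraries only. Mesothelial markers stayed at or below 2.92 CPM in sum. Muscle markers, of which Myh6, Ckm and Actc1 were at 0, summed to 9.64 to 12.02 and 12.4 to 18.6 CPM, a list that holds the complex IV forms Cox6a2, Cox7a1 and Cox8b.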

How the data were processed

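Polyadenylated RNA of 6 samples was sequenced. The authors deposited 1 table of exon counts. Its values are not all whole and its column totals differ, and the deposited values were handled in the unit of expected counts, without depth scaling. The submitters' processing notes name mm10, STAR, HOMER and DESeq2 without version or role. Strand use and duplicate handling are not given in the sources used here. Columns were assigned to groups by name; their numbers were not matched to the lettered replicates. The deposited expected counts were rounded and fitted over the whole table in edgeR 4.0.16 (R 4.3.3, limma 3.58.1): TMM, filterByExpr (minimum count 10, total 15), quasi-likelihood F test with 4 residual degrees of freedom, two-sided, Benjamini-Hochberg adjustment over 11286 genes, threshold 0.05. CPM use the column total. The fit was tested on simulated counts with larger changes than nearly all members had, and without the favoured low counts or the length pattern. That test therefore does not cover small differences such as those of most members. Alternatives covered scaling, filters, DESeq2 1.42.0, limma-voom, a replicate block, thresholds, counts divided by 6 and leaving out each library. Exon overlaps and near-identical stretches came from GENCODE vM21, promoters from RefSeq GRCm38.p6.

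The members and lists were chosen with earlier results of these data known. Named are all members that passed, in each complex the 2 of highest CPM per kb and the highest and lowest fold change, the paralog families, members not tested, and up to 4 called genes of each mitochondrial list; other genes (Atp5k, Ndufs8, Ndufs1, Ndufa10, Ndufa3, Sdha, Sdhb, Uqcrc2, Uqcrfs1 and Cyc1) were named after their values were seen. The floor of 18 counts covers counting error only.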

Additional observations from a re-analysis of the deposited data

How the results depend on the processing

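The number of members called lower was 2 in the reported fit and 4 with upper-quartile scaling, 9 with DESeq2, 4 with limma-voom and 7 at an adjusted p of 0.1. Of all tested genes, 6.04% were lower in the reported fit, 7.01% with upper-quartile scaling, 9.02% with DESeq2 and 6.63% with limma-voom. The share of all tested genes at an adjusted p of 0.1 is not given here, so the 7 members have no background beside them. In the other settings the number of members lower was 2 or 3, and Ndufc2 and Uqcrq were called in every setting run. It was 3 with no count filter and with counts divided by 6, where 5.18% and 8.8% of all tested genes were lower. Leaving out each library in turn gave 2 to 3 members lower, beside 3.41% to 6.34% of all tested genes. In every setting, 0 members were called higher. Upper-quartile scaling moved the median of all tested genes to -0.04 and that of the members to -0.23. The median of complex II, whose spread is the smallest, was -0.21 without DMSO+VIP library 3, and ranged from -0.21 to -0.13 over the fits that left out a library. In the other complexes every alternative moved the median by less than its spread between OCA+VIP libraries (1 SD). That spread comes from the same OCA+VIP libraries, so leaving 1 of them out could hardly exceed it. The complex IV median, for example, went from -0.18 to -0.02 without OCA+VIP library 2, within its SD of 0.26. With the column number as a replicate block, the fit gave the same 2 members lower and 0 higher, and 1118 called genes in all against 1328. Same-numbered libraries did not deviate together (correlations -0.04, -0.05 and 0.03), so the numbers were not treated as pairs. The sign of some uncalled members near 0 changed: Cox4i1, Cox8a and Atp5g3 without OCA+VIP library 2, Atp5a1 and Sdhd without OCA+VIP library 1, Uqcrh, Cox7a2l and Atp5a1 without OCA+VIP library 3, Cox7a2 without DMSO+VIP library 3, and Atp5a1 without DMSO+VIP library 1. The cause of these changes was not tested. No member has more than 1 genomic copy in the table, so leaving out such members removed none and tested nothing. In GENCODE, 24 of the 84 members have a near-identical stretch (at least 100 bases at 95% identity) in another gene elsewhere. Exon bases are shared with another gene in 25 members. The part of these stretches and overlaps in the counts was not tested.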

Other observations

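The genes beside the 2 called members were read within 200 kb on either side, a choice made after the calls were seen. Over all tested genes, 6.04% fell and 5.72% rose. Around Ndufc2, 7 of 10 neighbours were tested, and 1 of them, Gab2, a docking protein of receptor signalling, fell (log2 fold change -0.62, SE 0.16, edgeR adjusted p = 0.011). The nearest tested neighbour, Alg8, on the same strand, had 43.9 ± 4.40 CPM under DMSO+VIP, and 33.8 ± 10.0 CPM under OCA+VIP (SD, n = 3; -0.40, edgeR adjusted p = 0.27). Around Uqcrq, 6 of 11 neighbours were tested, and 1 of them, Sept8, a septin, fell (-0.54, SE 0.13, edgeR adjusted p = 0.0084). The nearest tested neighbour, Gdf9, on the opposite strand, had 8.49 ± 3.56 and 19.0 ± 5.42 CPM, each OCA+VIP library above each DMSO+VIP library without passing the test (1.14, SE 0.39, edgeR adjusted p = 0.064).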
